A study of Bos taurus with 9 samples.

Results

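The sites described here are 22621 short H3K9ac peaks of untreated bovine kidney cells that had no H3K9ac peak after butyrate, although an H3K27ac peak lay on the same place. They were chosen by overlap of the peak lists, and are the members in the keys of the plots. Each was a control H3K9ac peak shorter than 1000 bp on a nuclear chromosome, shared no base with a butyrate H3K9ac peak, and shared 1 bp or more with a butyrate H3K27ac peak. They made up 31.6% of the 71546 control H3K9ac peaks under 1000 bp (95% Wilson interval, 31.3% to 32.0%), and 30.5% of all 74114 nuclear control H3K9ac peaks. A control H3K27ac peak lay on 14931 of them, so H3K27ac was listed both before and after treatment, and 7690 had H3K27ac only after butyrate. Because the lists of H3K9ac and H3K27ac chose the sites, every value drawn from those lists is a description. The Pol II and H3K9me3 lists were not part of the choice.

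The cells were MDBK, an established epithelial line derived from bovine kidney. Control cells were untreated, and treated cells received 5 mM butyrate for 24 h. Chromatin immunoprecipitation sequencing (ChIP-seq) was run with antibodies to H3K9ac, H3K27ac, RNA polymerase II (Pol II) and H3K9me3 in both conditions, with 1 library for each of the 8 combinations, and peaks were called against an input of MDBK cells. No difference between conditions therefore had a replicate check, no test was run, and all intervals cover counting error only. Control and butyrate libraries were sequenced in different lanes, so lane and treatment cannot be told apart. The nuclear lists held 74114 control and 115104 butyrate H3K9ac peaks, 94603 and 187465 H3K27ac peaks, 56225 and 31225 Pol II peaks, and 25623 and 89478 H3K9me3 peaks. Read depth is unknown from these lists, which give positions without a height or score, so a lost peak is a peak that was not listed, and a weaker signal below the caller's threshold would look the same. In a bulk culture, fewer cells carrying a mark and less of the mark in each cell cannot be told apart.

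Acetyl groups on lysine 9 and lysine 27 of histone H3 are found at active promoters and enhancers, and the pair often occur together. They are laid down by different enzymes: GCN5 and PCAF write most H3K9ac, while p300 and CBP write most H3K27ac. Histone deacetylases remove them, and butyrate, a short-chain fatty acid made by microbes of the rumen and gut, inhibits many deacetylases. Pol II is the enzyme that transcribes protein-coding genes. H3K9me3, typical of silent heterochromatin, sits on the same lysine as H3K9ac, so a given histone tail can carry only one or the other.

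Loss of H3K9ac was common among short peaks. Most lost peaks had H3K27ac after butyrate, but less often than short control H3K9ac peaks as a whole. Of the control H3K9ac peaks under 1000 bp, 52.9% had no butyrate H3K9ac peak and 72.2% had a butyrate H3K27ac peak. The 22621 sites were 59.8% of the 37841 lost peaks (59.3% to 60.3%), which was below that 72.2%. Among lost peaks that carried H3K27ac in control, 74.4% had it after butyrate (73.8% to 75.0%, n = 20074), against 43.3% of lost peaks without it (42.6% to 44.0%, n = 17767). Among peaks with butyrate H3K27ac, H3K9ac was lost at 42.0% of those with control H3K27ac (41.5% to 42.5%, n = 35541) and at 47.6% of those without (46.9% to 48.4%, n = 16143). Control H3K27ac was thus listed at 66.0% of the lost sites (65.4% to 66.6%), beside 70.9% of the 29063 sites that kept H3K9ac under butyrate H3K27ac, and 59.0% of all control H3K9ac peaks under 1000 bp. The rule with the conditions exchanged found fewer sites, but it drew on an H3K27ac list of another size. Of 114459 butyrate H3K9ac peaks under 1000 bp, 11430 had no control H3K9ac peak and lay on control H3K27ac, which was 9.99% (9.81% to 10.2%). The control H3K27ac list held 94603 peaks, against 187465 after butyrate. With the longest butyrate H3K27ac peaks, as many as in control, the original rule chose 21.4% of short control H3K9ac peaks (21.1% to 21.7%). The H3K9ac lists were not matched in size either, so a difference between the directions was not tested.

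The lost sites were short, and those without control H3K27ac were the shortest. Their median length was 285 bp (exact binomial interval, 283 to 287 bp), with an interquartile range of 229 to 392 bp. It was 313 bp with control H3K27ac (310 to 315 bp) and 247 bp without (245 to 249 bp). Sites that kept H3K9ac under butyrate H3K27ac had a median of 366 bp (363 to 370 bp), and lost peaks without butyrate H3K27ac had a median of 244 bp (242 to 245 bp, n = 15220). The shortest length listed, 199 bp, was reached by 4.56% of the lost sites with control H3K27ac and by 13.8% of those without.

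The share of peaks that were lost under H3K27ac changed little with length up to 499 bp, although the share kept was higher in each longer class. It was 28.6% at 199 bp, 34.3% at 200 to 249 bp, 35.2% at 250 to 299 bp, 33.8% at 300 to 399 bp and 31.4% at 400 to 499 bp. It was lower in the longest classes, at 26.3% from 500 to 699 bp and 18.0% from 700 to 999 bp. Over the same classes, peaks kept with or without H3K27ac went from 33.7% to 80.2%. The makeup of the lost sites changed more than their number. Sites without control H3K27ac were 17.4% of peaks at 199 bp and 0.984% at 700 to 999 bp, while sites with it were 11.2% at 199 bp, 25.8% at 400 to 499 bp and 17.0% in the longest class. Of the 805 lost sites in the longest class, 761 had H3K27ac in both conditions.

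**Figure D1:**
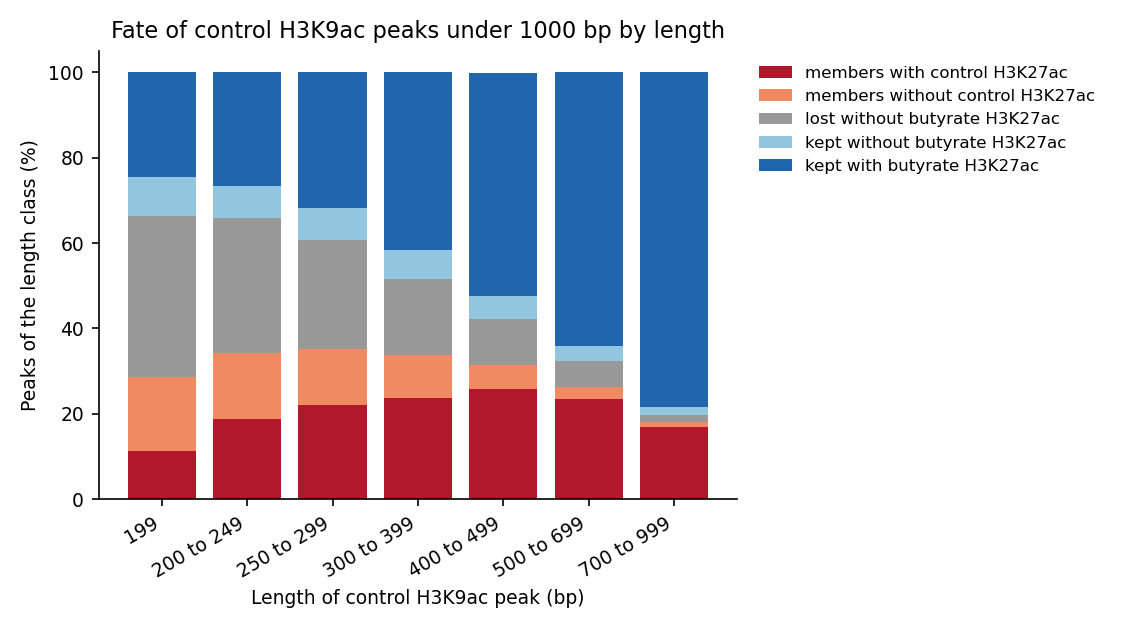
Share of control H3K9ac peaks under 1000 bp (vertical axis, percent of the length class) by length (horizontal axis, bp) and by what lay on them after butyrate. Red and orange are the sites lost under H3K27ac with and without control H3K27ac. Their sum stays between 28.6% and 35.2% up to 499 bp and is 18.0% in the longest class.

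The limit of 1000 bp cut through a continuous range. The longest lost site was 999 bp, at chr14:20896327-20897325 (lists' build, UMD3.1), under a butyrate H3K27ac peak of 265 bp and a control H3K27ac peak of 2119 bp. The nearest peak above the limit that met the rest of the rule was 1000 bp, at chr15:31564019-31565018, under a butyrate H3K27ac peak of 587 bp. The nearest of any kind, chr1:70291441-70292440, held 2 butyrate H3K9ac peaks. From 900 to 999 bp, 140 of 940 control H3K9ac peaks were lost under H3K27ac, and from 1000 to 1099 bp, 91 of 684. Among all 2568 control peaks of 1000 bp or longer, 226 met the rest of the rule.

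Pol II was listed less often at the lost sites than at sites that kept H3K9ac, in control cells as well as after butyrate. In control, 855 of the 22621 sites had a Pol II peak, which was 3.78% (3.54% to 4.04%). The share was 9.30% at kept sites with butyrate H3K27ac (8.97% to 9.64%), 4.89% at lost peaks without butyrate H3K27ac (4.56% to 5.24%) and 6.61% over all control H3K9ac peaks under 1000 bp. After butyrate, 2507 of the sites had Pol II, or 11.1% (10.7% to 11.5%). The corresponding shares were 22.6% at kept sites (22.1% to 23.1%), 5.75% at lost peaks without H3K27ac (5.39% to 6.13%) and 14.4% overall. The lost sites thus lay below the background of all short control H3K9ac peaks in both conditions, and after butyrate they lay between kept sites and lost peaks without H3K27ac.

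Pol II peaks were more frequent at these sites after butyrate than in control, although H3K9ac was no longer listed there. The ratio of sites with Pol II, butyrate over control, was 2.93, while that of the whole Pol II lists was 0.555. The same ratio was 2.43 at kept sites, 1.18 at lost peaks without H3K27ac and 2.18 over all short control H3K9ac peaks, and none of these ratios has a replicate check. Pol II was listed after butyrate only at 2381 of the sites, in control only at 729 and in both conditions at 126. The ratio was higher where H3K27ac had been present before treatment. These subsets were not matched for length, with medians of 313 bp with control H3K27ac and 247 bp without. Sites with control H3K27ac went from 439 (2.94%, 2.68% to 3.22%) to 1890 (12.7%, 12.1% to 13.2%), a ratio of 4.31. Sites without it went from 416 (5.41%, 4.93% to 5.94%) to 617 (8.02%, 7.44% to 8.65%), a ratio of 1.48. The order of the subsets was therefore opposite in the 2 conditions. The share in control was higher at sites without control H3K27ac, and the share after butyrate at sites with it. Lost peaks without butyrate H3K27ac had the same opposite order. Those with control H3K27ac (n = 5143) went from 153 (2.97%) to 463 (interval, 8.25% to 9.82%). Those without (n = 10077) went from 591 (5.86%) to 412 (4.09%). Kept sites went from 1936 to 5404 with control H3K27ac and from 766 to 1155 without. Their control shares differed little, at 9.39% and 9.06%.

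The lower Pol II share at the lost sites was also seen between peaks of like length. After butyrate it was 8.17% at lost sites of 199 bp (6.97% to 9.55%) against 12.1% at kept sites (10.5% to 13.9%), and 22.4% at lost sites of 700 to 999 bp (19.6% to 25.4%) against 40.9% at kept sites (39.3% to 42.6%). The intervals of lost and kept sites did not overlap in any of the 7 length classes. Control Pol II was below that of kept sites in each class too, from 3.23% against 6.80% at 200 to 249 bp to 5.71% against 12.9% at 700 to 999 bp. The gap was also present between sites under H3K27ac peaks of like length. Under H3K27ac peaks of 199 to 299 bp, butyrate Pol II was at 9.01% of lost sites (8.33% to 9.73%) and 12.8% of kept sites (11.8% to 13.9%), and under those of 1000 bp or longer at 14.7% (13.5% to 16.1%) and 29.6% (28.6% to 30.7%). Within sites that had control H3K27ac, lost and kept sites had 12.7% and 26.2% butyrate Pol II, and within sites that lacked it, 8.02% and 13.7%.

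The lost sites were about as far from butyrate Pol II as all short control H3K9ac peaks. The nearest butyrate Pol II peak was at a median distance of 4.50 kb (4.31 to 4.69 kb), beside 2.26 kb for kept sites (2.17 to 2.35 kb) and 10.5 kb for lost peaks without H3K27ac (10.1 to 10.9 kb). It lay within 1 kb, overlaps included, of 27.6% of the lost sites, of 39.2% of kept sites and of 15.8% of lost peaks without H3K27ac. Over all control H3K9ac peaks under 1000 bp, the median was 4.45 kb (4.34 to 4.55 kb). Their share within 1 kb was 29.2% (28.9% to 29.5%). Lost sites with control H3K27ac had butyrate Pol II within 1 kb more often (30.3%, 29.6% to 31.1%) than lost sites without (22.2%, 21.3% to 23.1%). The nearest control Pol II peak was farther from the lost sites, at a median of 10.1 kb (9.84 to 10.3 kb). Over all short control H3K9ac peaks that median was 8.44 kb (8.33 to 8.56 kb).

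H3K9me3 was scarce at the lost sites in both conditions, and few of them had it listed after butyrate in place of the acetyl mark. A control H3K9me3 peak lay on 334 sites, or 1.48% (1.33% to 1.64%), and a butyrate H3K9me3 peak on 443, or 1.96% (1.79% to 2.15%). Over all control H3K9ac peaks under 1000 bp the shares were 3.25% and 3.52%. The ratio of lost sites with H3K9me3, butyrate over control, was 1.33, while that of the whole H3K9me3 lists was 3.49. Lost peaks without butyrate H3K27ac had a higher share after treatment, 5.01% (4.68% to 5.37%), with a ratio of 1.82. Kept sites had a lower share after butyrate, 3.53% (3.32% to 3.75%), than in control, 4.56% (4.33% to 4.80%). Both subsets of the lost sites were low, at 1.51% after butyrate with control H3K27ac (1.32% to 1.72%) and 2.83% without (2.49% to 3.23%). In each length class the lost sites had a lower butyrate H3K9me3 share than kept sites, from 2.36% against 3.49% at 199 bp to 1.74% against 4.63% at 700 to 999 bp, but the intervals overlapped at 199 bp (1.74% to 3.18% and 2.67% to 4.55%) and at 400 to 499 bp (1.96% to 3.20% and 2.79% to 3.89%).

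**Figure D2:**
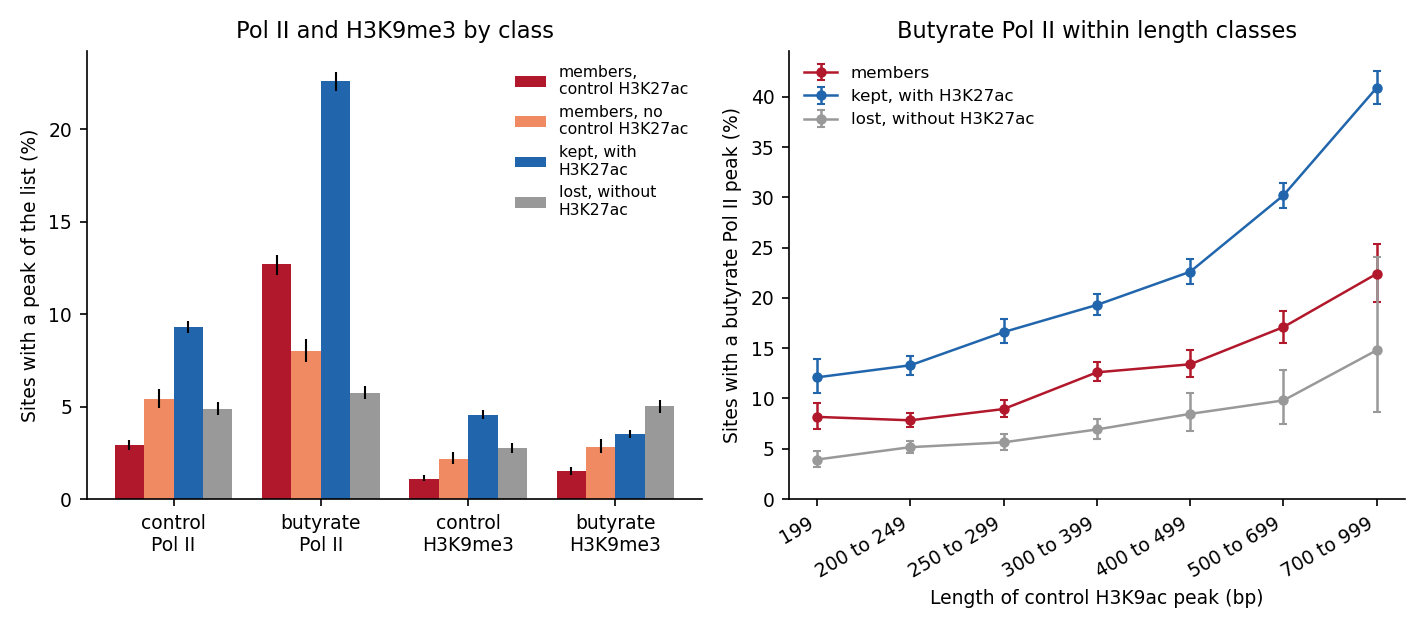
Left, share of sites (percent) with a Pol II or H3K9me3 peak in control or butyrate cells, for lost sites with and without control H3K27ac, kept sites with butyrate H3K27ac and lost peaks without it. Right, share with a butyrate Pol II peak by length of the control H3K9ac peak (bp). Bars and points are shares and lines are 95% Wilson intervals. Butyrate Pol II was at 11.1% of all lost sites under H3K27ac and 22.6% of kept sites, and the order held in each length class.

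The H3K27ac peaks over the lost sites were about as long after butyrate as in control, while those over kept sites were longer after butyrate. At the lost sites with H3K27ac in both conditions, its median length was 460 bp in control (453 to 466 bp) and 458 bp after butyrate (452 to 465 bp). At kept sites with both, it was 469 bp (464 to 476 bp) and 708 bp (700 to 715 bp). Over all lost and all kept sites, the butyrate H3K27ac peak had medians of 430 bp (425 to 433 bp) and 651 bp (644 to 657 bp). Of the 14931 lost sites with H3K27ac in both conditions, the butyrate peak was the longer at 47.9% (47.1% to 48.7%) and the shorter at 51.3% (50.5% to 52.1%). At kept sites it was the longer at 67.1% (66.5% to 67.8%, n = 20610). Over all short control H3K9ac peaks with H3K27ac in both conditions, the butyrate peak was the longer at 59.0% (58.5% to 59.6%, n = 35541). That set consists of these lost and kept sites, so its share lies between theirs. A count per H3K27ac peak, with or without H3K9ac, is not matched to these shares. Over all 62320 control H3K27ac peaks that a butyrate H3K27ac peak overlapped, the butyrate peak was the longer at 67.4% (67.0% to 67.7%). Control lengths thus differed little between the classes, and the butyrate lengths differed more. Sites whose H3K27ac appeared only after butyrate lay under shorter peaks, with a median of 377 bp (370 to 385 bp).

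Most lost sites were well covered by their butyrate H3K27ac peak, as were most short control H3K9ac peaks that had one. That peak covered a median of 95.7% of the lost site, 45.3% of sites lay wholly inside it (44.6% to 45.9%), and 84.7% were covered over 50% or more of their length. Kept sites lay wholly inside in 57.1% of cases (56.5% to 57.7%). Over all control H3K9ac peaks under 1000 bp with butyrate H3K27ac, 51.9% lay wholly inside and 87.7% were covered over 50% or more. The lost sites were slightly below both shares. The centres of the lost site and of its butyrate H3K27ac peak were a median of 98.0 bp apart (96.0 to 100 bp), which was 43.2% of the way from the centre of the H3K27ac peak to its edge (42.5% to 43.8%), beside 37.8% for kept sites (37.2% to 38.4%). A touch at an edge was therefore not the usual case.

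The sites were spread over 22518 butyrate H3K27ac peaks, which were 12.0% of the butyrate H3K27ac list. A single lost site lay in 21415 of them, 2 lay in 1057, 3 in 43, and 4 in 3. In 18950 of these H3K27ac peaks no butyrate H3K9ac peak was left, and in 3568 there was one at another position. Per site, 15.9% of the lost sites shared their butyrate H3K27ac peak with butyrate H3K9ac (15.4% to 16.4%). H3K27ac peaks that still held H3K9ac were long, with a median of 964 bp (945 to 987 bp). Those that held none had 364 bp (360 to 367 bp). Butyrate Pol II lay anywhere in 29.1% and 11.3% of them, shares not adjusted for this difference in length. It lay in 24.6% of H3K27ac peaks with a kept site and no lost site, and in 9.41% of all. On the lost sites themselves, butyrate Pol II was at 12.6% where the H3K27ac peak held H3K9ac (11.6% to 13.8%). It was at 10.8% where the peak held none (10.4% to 11.2%). Where an H3K27ac peak held both a lost site and butyrate H3K9ac, a median of 152 bp separated them (146 to 159 bp, n = 3445). This left out sites where the H3K9ac peak lay mainly under another H3K27ac peak.

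Butyrate H3K9ac was often close by, though less often than for all short control H3K9ac peaks. The nearest butyrate H3K9ac peak lay at a median of 0.965 kb (0.939 to 0.993 kb), and within 1 kb of 50.8% of the sites (50.2% to 51.5%), 5 kb of 81.5%, 10 kb of 89.1% and 100 kb of 99.3%. Over all control H3K9ac peaks under 1000 bp, these shares were 70.4%, 87.7%, 92.6% and 99.4%. That set includes the kept peaks, which overlap butyrate H3K9ac by definition. Lost peaks without butyrate H3K27ac were farther, at a median of 1.99 kb (1.91 to 2.07 kb), with 33.9% within 1 kb (33.2% to 34.7%). The lost sites with and without control H3K27ac differed little, with medians of 0.998 kb (0.964 to 1.03 kb) and 0.900 kb (0.858 to 0.949 kb). Sites whose H3K27ac peak held no butyrate H3K9ac were at a median of 1.34 kb (1.31 to 1.38 kb, n = 19029). The distances had a spike: 573 sites, or 2.53%, lay exactly 201 bp from the nearest butyrate H3K9ac peak, and the next most frequent distance, 601 bp, was found at 56.

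**Figure D3:**
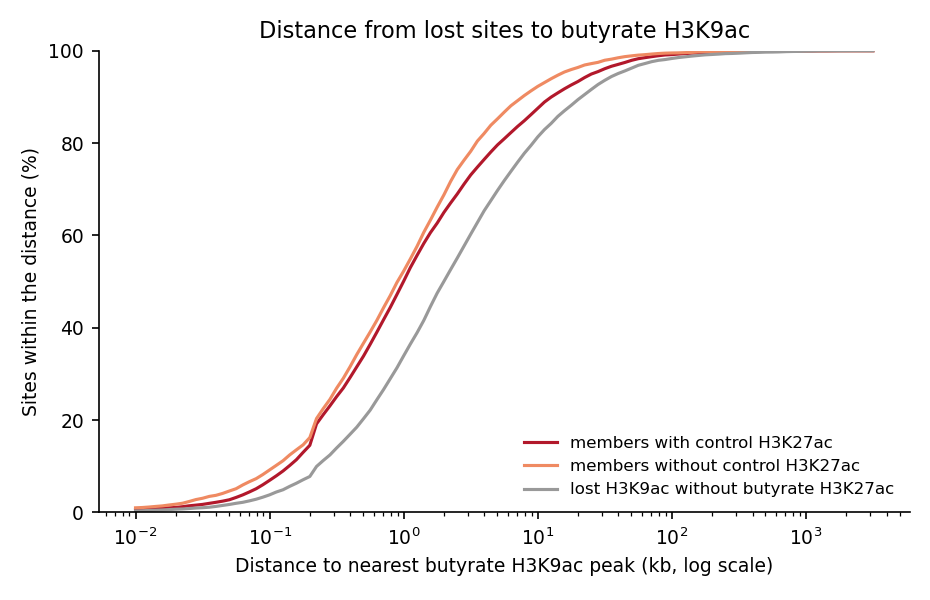
Share of sites (vertical axis, percent) with a butyrate H3K9ac peak within the distance on the horizontal axis (kb, log scale). The curves of the lost sites with and without control H3K27ac reach 50.1% and 52.3% at 1 kb, and that of lost peaks without butyrate H3K27ac reaches 33.9%. The small step near 0.2 kb is the 573 sites at 201 bp.

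The sites also differed in how they stood among control H3K9ac peaks. When control H3K9ac peaks less than 1 kb apart were joined into runs, 37.0% of the lost sites stood alone (36.4% to 37.6%), 41.8% shared a run with a peak that was kept (41.2% to 42.5%), and 21.2% were in a run of 2 or more peaks of which none was kept (20.6% to 21.7%). Over all short control H3K9ac peaks, 41.9% stood alone (41.5% to 42.3%). The shares in runs with and without a kept peak have no such value over all peaks beside them. Lone position was usual only without control H3K27ac, at 53.9% of those sites (52.8% to 55.0%) against 28.3% of sites with it (27.6% to 29.0%). With control H3K27ac, 47.3% shared a run with a kept peak (46.5% to 48.1%). The nearest other control H3K9ac peak was at a median of 0.382 kb with control H3K27ac (0.371 to 0.396 kb) and 1.21 kb without (1.15 to 1.27 kb). The nearest other control H3K9ac peak was lost for 54.2% of the sites (53.6% to 54.9%), which was near the 49.5% over all short control H3K9ac peaks (49.2% to 49.9%). The share was 40.5% for kept sites (39.9% to 41.1%) and 60.1% for lost peaks without H3K27ac (59.3% to 60.8%). In runs of 3 or more peaks with a kept member, the lost sites were 30.4% of peaks at the ends of runs (29.5% to 31.2%) and 33.4% of those inside (32.5% to 34.3%), so they did not gather at the ends.

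Chromosome X stood apart from all other chromosomes. Of its 847 control H3K9ac peaks under 1000 bp, 371 were lost under H3K27ac, or 43.8% (40.5% to 47.2%). The other 29 chromosomes ranged from 28.2% on chromosome 17 to 36.4% on chromosome 23. H3K9ac was kept at only 15.5% of the X peaks (13.2% to 18.1%) and at 43.6% to 52.5% on the other chromosomes. The difference was of H3K9ac more than of H3K27ac. Among X peaks with butyrate H3K27ac, 77.8% had lost H3K9ac (73.8% to 81.3%, n = 477), against 43.5% elsewhere (43.0% to 43.9%, n = 51207). Control H3K27ac was listed at 64.1% of X peaks and 58.9% of the others, and butyrate H3K27ac at 56.3% and 72.4%.

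The lower kept share on X was present in each length class and along the whole chromosome, while the share of lost sites under H3K27ac varied along it. The share lost among peaks with butyrate H3K27ac was 84.0% on X and 55.4% elsewhere at 199 to 249 bp, 80.1% and 47.8% at 250 to 399 bp, and 67.9% and 29.4% at 400 to 999 bp. In the 15 windows of 10 Mb along X, with 17 to 109 peaks each, the kept share ran from 0% to 24.8%, and its highest value was thus below the lowest of any other chromosome. The window at 0% had 17 peaks, which allows a share of up to 17.6%. The share lost under H3K27ac ran from 20.0% to 64.4% in the same windows, so it was not above the other chromosomes in every window. The 371 X sites were isolated from butyrate H3K9ac, with a median distance of 11.2 kb (8.92 to 13.5 kb) against 0.941 kb for the sites on other chromosomes (0.916 to 0.966 kb), and only 8 of them shared their H3K27ac peak with butyrate H3K9ac. Their own length was not shorter, with medians of 302 bp (283 to 317 bp) on X and 284 bp elsewhere (283 to 286 bp). Butyrate Pol II lay on 28 of them, or 7.55% (5.27% to 10.7%), against 11.1% elsewhere (10.7% to 11.6%). Between conditions, the number of peaks on X went from 852 to 601 for H3K9ac and from 1583 to 2746 for H3K27ac. X holds few peaks in each list, and without it the main shares and distances stayed within their intervals.

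**Figure D4:**
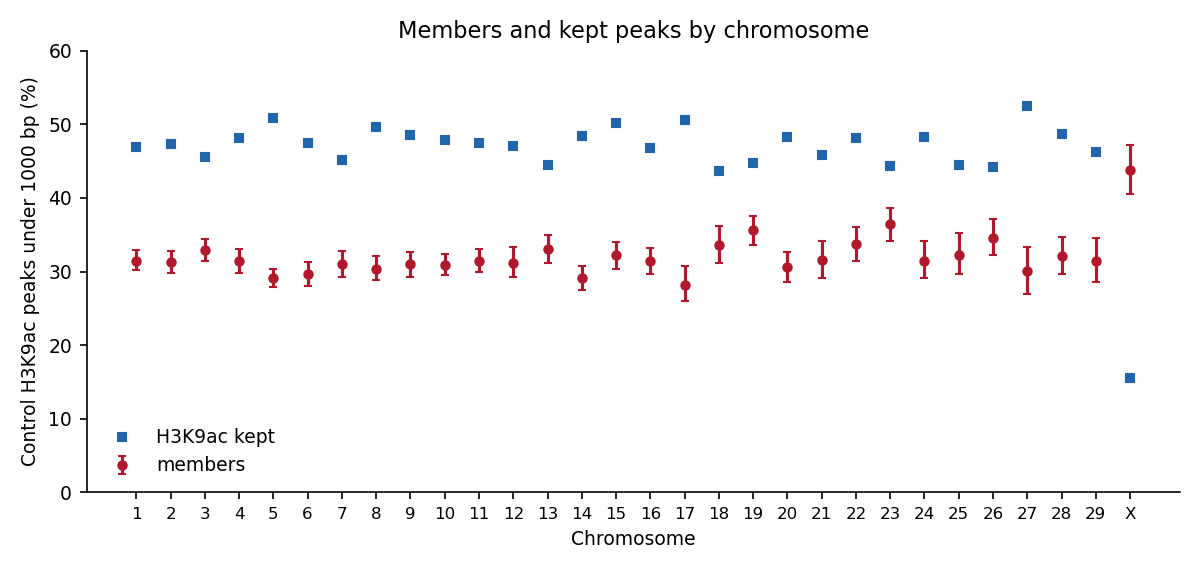
Share of control H3K9ac peaks under 1000 bp (vertical axis, percent) that were lost under butyrate H3K27ac (red, with 95% Wilson intervals) or kept in butyrate H3K9ac (blue), by chromosome. On X the lost sites reach 43.8% and the kept peaks fall to 15.5%, and on no other chromosome are the lost sites the more frequent.

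The densest cluster of lost sites was on chromosome 11. The window chr11:25000001-26000000 held 76 of them among 158 short control H3K9ac peaks (48.1%), 60 of the 76 with control H3K27ac. That window held 162 control and 128 butyrate H3K9ac peaks, 225 and 297 H3K27ac peaks and 23 and 45 Pol II peaks, and 11 of the 76 sites had butyrate Pol II against 1 with control Pol II. The next windows by count were chr8:40000001-41000000, with 62 sites among 205 peaks (30.2%), and chr15:14000001-15000000, with 59 among 156 (37.8%). The share on chromosome 8 was not above the 31.6% of all short control H3K9ac peaks, so its high count held no excess of lost sites. That window held more H3K9ac peaks after butyrate than in control, 307 against 223. The median window that held any lost site held 8.00.

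Single loci show the forms that the pattern took. The butyrate H3K27ac peak chr5:32489258-32491328, 2071 bp long, held 4 control H3K9ac peaks of 203 to 619 bp, all lost and all with control H3K27ac, and no butyrate H3K9ac peak. It had no control Pol II peak and 1 butyrate Pol II peak. Here H3K9ac was no longer listed over a whole H3K27ac peak. The H3K27ac peaks chr8:103418238-103421005, of 2768 bp, and chr20:13492020-13494230, of 2211 bp, also held 4 lost sites each but had 1 and 2 butyrate H3K9ac peaks left.

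**Figure D5:**
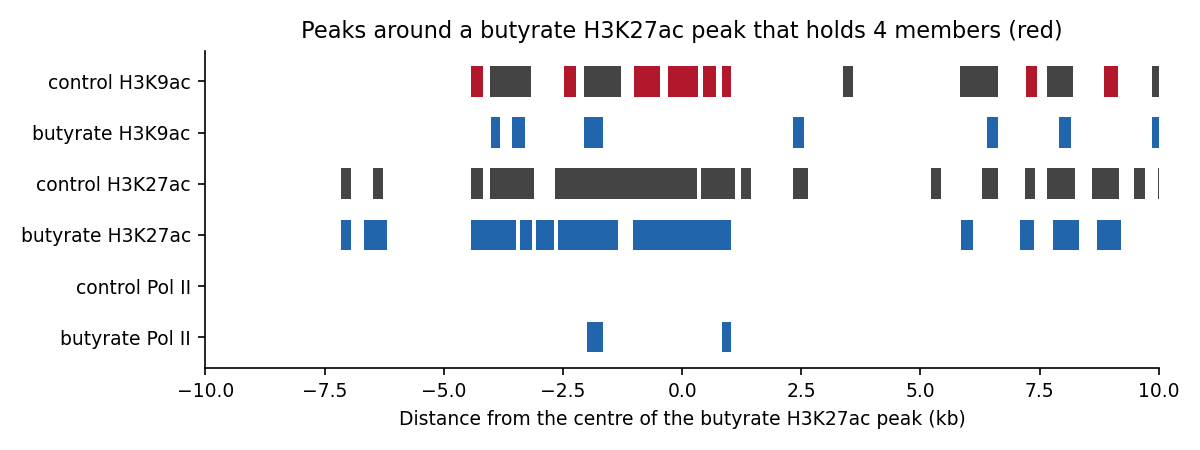
Peaks of 6 lists (rows) within 10 kb of the centre of the butyrate H3K27ac peak of 2071 bp on chromosome 5 (horizontal axis, distance in kb). Red marks the lost sites and dark grey other control peaks, and blue marks butyrate peaks. The 4 red peaks at the centre have H3K27ac below them in both conditions and no butyrate H3K9ac, and butyrate H3K9ac is listed on peaks to either side.

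The longest butyrate H3K27ac peaks with a lost site were large domains in which butyrate H3K9ac was listed beside the lost site. On chromosome 15, the H3K27ac peak on 2 lost sites was 976 bp in control (chr15:41105178-41106153) and 4992 bp after butyrate (chr15:41102664-41107655). Other control H3K27ac peaks within the 4992 bp were not counted. The butyrate H3K27ac peak held 5 butyrate H3K9ac peaks. The lost sites chr15:41105343-41105671 (329 bp) and chr15:41105844-41106119 (276 bp) were 70 and 167 bp from the nearest of them. The lost site chr14:68846554-68847157, of 604 bp, lay near the end of a butyrate H3K27ac peak of 4782 bp that held 4 butyrate H3K9ac peaks, the nearest 378 bp away. None of these sites had Pol II or H3K9me3 in either condition. Without control H3K27ac, the longest such peaks were 3303, 3269 and 3079 bp, over the lost sites chr25:10289094-10289343, chr24:37824991-37825242 and chr8:40786404-40786698, with 2, 3 and 3 butyrate H3K9ac peaks in them. The first of these had butyrate Pol II and the second control Pol II.

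At the longest lost sites the butyrate H3K27ac peak held no butyrate H3K9ac. At all but chr10:51602415-51603398 that H3K27ac peak lay wholly inside the lost site, so the rule fixed this in advance. The lengths given are those of the H3K27ac peak with the largest overlap, and other H3K27ac peaks nearby were not counted. The site of 999 bp on chromosome 14 lay under a butyrate H3K27ac peak of 265 bp and a control one of 2119 bp. The nearest butyrate H3K9ac was 920 bp away. At chr20:31365156-31366154, also 999 bp, the H3K27ac peak was 1145 bp in control and 531 bp after butyrate. At chr4:40762361-40763358, of 998 bp, the H3K27ac peak had nearly the same length, 989 and 930 bp, with butyrate H3K9ac 724 bp away. The longest without control H3K27ac were chr10:51602415-51603398 (984 bp), chr10:51599783-51600723 (941 bp) and chr9:88044875-88045809 (935 bp), under butyrate H3K27ac peaks of 815, 259 and 732 bp. Of these, the first had butyrate Pol II and the last control Pol II, and neither pattern was shared by all 3.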

How the data were processed

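The authors sequenced ChIP DNA of MDBK cells, trimmed reads with Trim Galore 0.4.1, aligned them with BWA to the cattle assembly UMD3.1 and called peaks with MACS2 in each library against the input of the MDBK cells. Per the files, each deposited list gives chromosome, start and end, with no score. The shortest end minus start was 199 in each list, so starts may be counted from 1. Here they were taken as 0-based, and printed starts are 1-based, so lengths may be 1 bp too low. Mitochondrial peaks were left out. Overlap meant 1 bp or more, and the H3K27ac peak of a site was the one with the largest overlap. Shares have 95% Wilson intervals and medians exact binomial intervals, and neighbouring peaks are not independent, so both cover counting error only. The input library and a gene annotation of this build were not used here, so no gene is named. Regions were named by rule: for each subset the 3 sites under the longest butyrate H3K27ac peaks and the 3 longest sites, and over both the 3 windows of 1 Mb and the 3 H3K27ac peaks with the most sites. The sites, classes and alternatives were chosen with earlier results of these data known. The alternatives were an overlap of 50%, a margin of 1 kb, longer H3K27ac peaks, other length limits, chromosomes left out and starts counted from 1. The procedure was tested on simulated data. Python 3.11.15, numpy 2.4.6, pandas 2.3.3, scipy 1.17.1 and matplotlib 3.10.9 were used.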

Additional observations from a re-analysis of the deposited data

How the results depend on the processing

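No paired analysis was possible because all groups consist of 1 library, and for the same reason no library could be left out. The sites were 31.6% of short control H3K9ac peaks. With an overlap of at least 50% of the control peak, this became 36.3%, control H3K27ac 58.7%, butyrate Pol II 15.0%, the median distance to butyrate H3K9ac 0.434 kb and the share with butyrate H3K9ac in the same H3K27ac peak 37.3%. Peaks with a smaller overlap by butyrate H3K9ac then count as lost, so these last values moved partly by construction. With no butyrate H3K9ac allowed within 1 kb, the values in the same order were 15.5%, 67.0%, 10.2%, 3.27 kb and 0.234%. There the distance and the last share moved by construction. With butyrate H3K27ac peaks of at least 500 bp they were 13.3%, 71.9%, 13.1%, 0.637 kb and 34.4%. With the longest butyrate H3K27ac peaks, as many as in control, they were 21.4%, 69.7%, 12.1%, 0.839 kb and 23.2%. With sites of at least 300 bp they were 29.5%, 79.1%, 14.5%, 1.02 kb and 13.0%, and butyrate H3K9me3 was 2.20%. Without an upper length limit the first was 30.8%. Without chromosomes 5 and 14 butyrate H3K9me3 was 1.71%. All other values stayed within the interval of the reported value, those with starts counted from 1 and those without chromosome X included, the latter chosen after seeing the data. Under each of these settings the sites had lower control and butyrate Pol II and lower H3K9me3 shares in both conditions than kept sites. Lists without a score leave the caller's threshold untested, and read depth was not used.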

Other observations

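The rows of each list were not in genome order. They ran in blocks, each in order of chromosome name and start, and the control H3K9ac list had 203 such blocks. The lost sites were unevenly spread over them. Among the 26 blocks with at least 300 short control H3K9ac peaks, chosen after their values were seen, 6 had under 40% of peaks kept. In those 6 blocks, with 11181 peaks, 24.0% were kept (11.2% to 27.9% by block), 47.9% were lost under H3K27ac (44.1% to 58.8%), and control H3K27ac lay on 76.4%. In the other 20, with 55210 peaks, the shares were 53.7% (45.6% to 80.6%), 26.6% (17.9% to 30.4%) and 53.0%. The 6 blocks were not neighbours among all 203 blocks, although some of them followed one another among the 26. Their median lengths by block (258 to 375 bp) lay within the range of the others (256 to 661 bp). They held 35.6% of the lost sites with control H3K27ac (34.8% to 36.4%) and 11.6% of those without (10.9% to 12.4%). Control Pol II lay on 0.672% of the lost sites in these blocks (0.486% to 0.929%) and on 5.49% in the others (5.14% to 5.87%), and butyrate Pol II on 7.77% (7.08% to 8.52%) and 12.4% (11.8% to 12.9%). For lost sites with control H3K27ac, Pol II went from 0.646% to 8.31% in the 6 blocks and from 4.89% to 15.5% in the others. For lost sites without it, Pol II went from 0.811% to 4.98% and from 6.25% to 8.42%. Chromosomes 5 and 14 gave 16.7% of the peaks in the 6 blocks and 8.74% in the others. What the order stands for was not tested.

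Peaks of separate libraries often had the very same edge. A lost site had its start or its end at the same base as its butyrate H3K27ac peak in 20.0% of cases (19.4% to 20.5%), both in 1.74% (1.58% to 1.92%). It shared an edge with its control H3K27ac peak in 15.0% (14.4% to 15.6%, n = 14931) and with an overlapping butyrate Pol II peak in 13.7% (12.4% to 15.1%, n = 2507). Kept sites had shared edges at a like rate, 18.9% with butyrate H3K27ac (18.5% to 19.4%). Exact gaps recurred too. A gap of 201 bp was the most frequent not only to butyrate H3K9ac (573 sites) but also to the nearest other control H3K9ac peak (708 sites, 3.13%). All libraries were compared with 1 input, and its part in shared edges and gaps was not tested.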
